A study of Mus musculus with 173 samples.

Results

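Bone morphogenetic protein (BMP) signalling was described in single cells of the adult mouse dentate gyrus through 10 genes: the ligand Bmp4, the type I receptors Bmpr1a, Bmpr1b and Acvr1, the type II receptor Bmpr2, the receptor-regulated Smads Smad1, Smad5 and Smad9, the common partner Smad4 and the inhibitory Smad7. They were taken by name, not by level, as 10 of the 23307 genes of the table. A gene counted as measured when it reached 1 TPM (an expression unit corrected for transcript length and set to the same sum in each library) in at least 5% of all libraries, that is in at least 9. This held for 12007 genes and for 9 of the 10. Smad7 reached 1 TPM in 8 libraries, or 4.65%, and stayed out of the counts, while Bmp4, at 9 libraries or 5.23%, was just inside.

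All cells came from C57BL/6 mice aged 8 to 12 weeks, and each library is 1 cell. The design concerns quiescent stem cells of the hippocampus and their direct descendants. Of the 172 libraries, 4 carry titles with the letter R, most carry C and 26 carry N, and the labels do not spell these letters out. No genotype, treatment or animal is named for them, so each letter is 1 sample: values are given with their spread between cells, and no test between classes could be made. C cells were split by the larger of their mean levels of 16 S phase genes and 20 G2 and mitosis genes, on the log2(TPM + 1) scale used throughout. The 27 cells with a mean of at least 3 are called cycling and all other C cells non-cycling. The highest non-cycling cell stood at 2.91 and the lowest cycling cell at 3.31, and 13 C cells lay between 2 and 4.

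BMPs are secreted ligands that bring together type II and type I receptor kinases at the cell surface. The type I receptor phosphorylates Smad1, Smad5 or Smad9, which joins Smad4, enters the nucleus and acts on target genes, among which the Id genes are the best known. Smad7 blocks the receptors in a feedback loop. In the adult hippocampus of mice, BMP signalling through Bmpr1a is known to hold neural stem cells in quiescence.

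Depth cannot be read from TPM, so the number of genes at 1 TPM or more stands in for it. It was 3199 ± 618 in R cells, 3734 ± 930.2 in C cells and 3512 ± 939 in N cells (SD), and 3861 ± 827 in cycling against 3704 ± 954 in non-cycling C cells. Of all values 78.5% were listed at 0, including Gapdh in 2 libraries, so a gene is said only to be listed at 0. The letters and the cell type markers differ: the 10 mature neuron markers averaged 6.42 ± 0.39 in R cells and 1.40 ± 1.13 in C cells, and the 14 stem cell markers 6.70 ± 1.54 in C cells and 3.07 ± 1.10 in N cells. N cells included cells high in oligodendrocyte, endothelial and mural markers. The column C27 could belong to either of 2 titles and was kept as a C cell.

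The 3 promoters below belong to the receptor pair Bmpr1a and Bmpr1b, detected in a smaller share of cycling than of non-cycling cells, and to Smad5, detected in a larger share. The Bmpr1a difference in mean level, -0.998, fell just short of the size used below to call a difference. Smad4, which passed that size, is named only. Each is the RefSeq sequence on build GRCm38.p6, 250 bases before to 50 bases after the gene start. For Bmpr1b and Smad5 the table holds 3 entries, and the first is shown. Capitals mark GGCGCC, a GC-rich element bound by Smad1 and Smad5 at known BMP targets, and CCAAT, the element of the factor NF-Y, on either strand (CCAAT on the other strand reads ATTGG). Bmpr1a is at chr14:34502497-34502796 on the minus strand, Bmpr1b at chr3:141982215-141982514 on the minus strand and Smad5 at chr13:56702760-56703059 on the plus strand.
Bmpr1a: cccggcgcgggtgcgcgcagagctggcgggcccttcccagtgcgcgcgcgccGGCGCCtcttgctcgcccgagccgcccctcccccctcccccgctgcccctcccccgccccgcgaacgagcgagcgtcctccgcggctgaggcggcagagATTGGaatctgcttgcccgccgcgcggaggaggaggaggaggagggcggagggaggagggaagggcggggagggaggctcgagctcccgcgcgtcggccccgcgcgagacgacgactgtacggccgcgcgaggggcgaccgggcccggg
Bmpr1b: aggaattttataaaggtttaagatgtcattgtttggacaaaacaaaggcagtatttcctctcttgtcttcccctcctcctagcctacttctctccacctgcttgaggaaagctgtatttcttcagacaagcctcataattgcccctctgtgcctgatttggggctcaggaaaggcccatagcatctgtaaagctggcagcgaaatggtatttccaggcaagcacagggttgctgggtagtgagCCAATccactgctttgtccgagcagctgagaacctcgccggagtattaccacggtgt
Smad5: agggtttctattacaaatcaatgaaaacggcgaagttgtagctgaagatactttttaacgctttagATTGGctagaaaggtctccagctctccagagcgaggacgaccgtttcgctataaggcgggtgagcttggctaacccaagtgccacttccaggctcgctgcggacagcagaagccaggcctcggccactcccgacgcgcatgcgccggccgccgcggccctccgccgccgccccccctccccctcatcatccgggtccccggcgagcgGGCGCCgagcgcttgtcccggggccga

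The Bmpr1a promoter holds 48 CpG dinucleotides, more than 98.8% of the 32851 mouse promoters in the table, whereas that of Bmpr1b holds 5, more than 38.04%. Smad5, at 31, lies above 89.4%. GGCGCC begins 198 bases before the start in Bmpr1a, which is position -198 in a count with no position 0, and at position 24 in Smad5. The Bmpr1b window does not hold it. CCAAT lies at -99 in Bmpr1a, at -7 in Bmpr1b and at -184 in Smad5. Neither element is particular to these 3 genes. GGCGCC also lies at -105 in Bmpr2 and at -51 in Smad9, and CCAAT at -57 in Smad1, members not called between cycling and non-cycling cells. Of all promoters 11.9% hold GGCGCC and 37.4% CCAAT. The palindromic Smad element GTCTAGAC, the E2F motifs TTTCCCGC and TTTGGCGC and the cell cycle element TTTGAA, read on both strands, were not found in the windows of these 3 genes or of Bmp4, Bmpr2, Acvr1, Smad1 and Smad9. They occur in 0.213%, 1.07%, 0.514% and 17.9% of all promoters. No motif overlapped another in the printed sequences.

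Bmp4, the ligand, was detected in few cells. It was listed at 1 TPM or more in 1 of 4 R cells, in 7 C cells (4.93%, with an exact 95% interval from 2.005 to 9.89%) and in 1 N cell (3.85%, 0.0973 to 19.6%). Such intervals, here and below, cover counting error between cells only. Of the 7 C cells, 6 held 1.11 to 3.61 TPM and 1, C27, held 1414.33 TPM. All 7 belonged to the same cluster, named stem cell-like below, although C27 averaged only 3.53 over the stem cell markers. The N cell with Bmp4, at 21.05 TPM, was oligodendrocyte lineage-like. The other 9 BMP ligands that were looked up were not measured: Bmp7 reached 1 TPM in 7 C cells (highest 500.06 TPM) and 1 N cell, Bmp6 in 2 C cells, and Bmp2 was listed at 0 in every library.

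Of the type I receptors, the kinases that pass the signal to Smads, Bmpr1a was the most widespread. Its values ran from 0 through a median of 0.37 to 855.28 TPM in C cells and from 0 through 0 to 372.49 TPM in N cells. The 4 R cells held 0, 0.27, 0 and 443.61 TPM, so 1 R cell was high and the other 3 were below 1 TPM. At 1 TPM or more it was found in 52 C cells (36.6%, 28.7 to 45.1%) and 5 N cells (19.2%, 6.55 to 39.4%), and the groups overlapped throughout. Where it was detected in C cells its median was 73.6 TPM, against a median of 0.37 TPM over all C cells.

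Bmpr1b, the closest relative of Bmpr1a, was detected in 31 C cells (21.8%, 15.3 to 29.5%) and 4 N cells (15.4%, 4.36 to 34.9%). Values ran from 0 through 0.15 to 807.62 TPM in C cells and from 0 through 0 to 715.48 TPM in N cells. The 4 R cells held 0.51, 0.28, 0 and 0 TPM. Its median where detected was 100.8 TPM in C cells and 1.30 TPM in N cells, and 16 C cells but 1 N cell exceeded 100 TPM. Acvr1, the type I receptor shared with activin ligands, was rarer, in 9 C cells (6.34%, 2.94 to 11.7%) and 3 N cells (11.5%, 2.45 to 30.2%), with all 4 R cells at 0. In C cells 18 held both Bmpr1a and Bmpr1b, 34 Bmpr1a without Bmpr1b, 13 Bmpr1b without Bmpr1a, and 6 Acvr1 with neither.

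Bmpr2, the type II receptor that binds BMP and activates the type I partner, was detected in 18 C cells (12.7%, 7.69 to 19.3%) and 4 N cells (15.4%, 4.36 to 34.9%). All 4 R cells were listed at 0. Its highest values were 490.52 TPM in C cells and 734.25 TPM in N cells. It was thus found less widely than Bmpr1a, although its median where detected in C cells, 66.5 TPM, was close.

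Among the receptor-regulated Smads, which carry the signal to the nucleus, Smad1 was found in 50 C cells (35.2%, 27.4 to 43.7%) and 8 N cells (30.8%, 14.3 to 51.8%). Smad5 was found in 40 C cells (28.2%, 20.9 to 36.3%) and 5 N cells (19.2%, 6.55 to 39.4%). The 4 R cells held 0.81, 34.88, 0.08 and 0 TPM of Smad5 and at most 0.53 TPM of Smad1. Smad9 was found in 24 C cells (16.9%, 11.1 to 24.1%) and 8 N cells (30.8%, 14.3 to 51.8%). It differed from the other two in level: its median where detected in C cells was 2.17 TPM, against 13.5 TPM for Smad1 and 51.8 TPM for Smad5, and no cell reached 100 TPM.

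Smad4, the partner that all receptor-regulated Smads share, was found in 41 C cells (28.9%, 21.6 to 37.1%) and 3 N cells (11.5%, 2.45 to 30.2%). The R cells held 0, 0, 6.93 and 0 TPM. C cells reached 854.69 TPM with a median of 112.9 TPM where detected, and N cells reached 119.6 TPM. Smad7, the inhibitor, was listed at 1 TPM or more in 6 C cells and 2 N cells, up to 95.09 TPM in C cells and 5.28 TPM in N cells. The plot of detection by title class shows the wide and overlapping intervals.

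**Figure D1:**
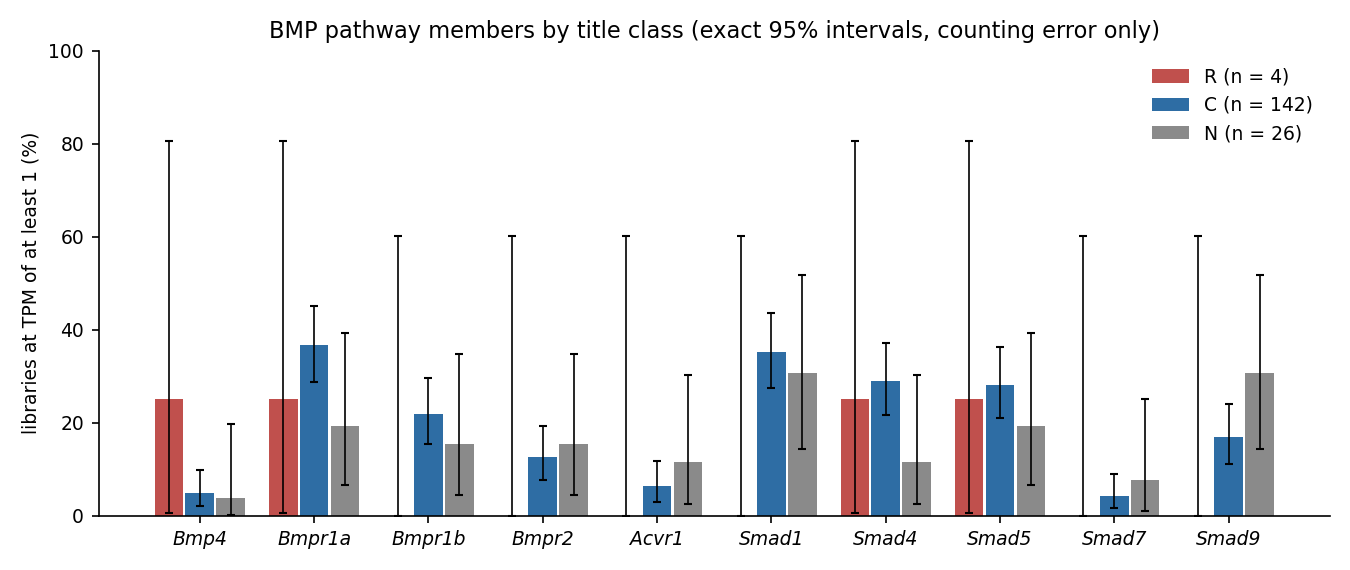
Share of libraries in which each gene reached 1 TPM, in percent, for R, C and N cells; bars are shares and whiskers exact 95% intervals. Bmpr1a (36.6% of C cells) and Smad1 (35.2%) have the tallest C bars and Bmp4 (4.93%) and Smad7 (4.23%) the shortest.

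Between C and N cells, Bmpr1a and Smad4 were higher in C cells by at least 1 on the log2 scale, the size used as a call, and with all cells no member was lower by that much. Among all measured genes 9.98% were called higher and 4.19% lower, and 2 of 9 members is too small a count to set against these shares. With each library rescaled by its upper quartile these shares were 8.66% and 5.97%, and Bmpr1b (1.09) was called in place of Smad4 (0.92). Bmpr1a averaged 2.16 ± 2.98 in C cells and 1.0 ± 2.31 in N cells, a difference of 1.16. Smad4 averaged 1.77 ± 2.96 in C cells and 0.69 ± 1.80 in N cells, a difference of 1.08. Both differences are smaller than the spread between cells.

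The remaining members differed by less between C and N cells. Bmpr1b differed by 0.99 (1.51 ± 2.71 in C cells, 0.52 ± 1.87 in N cells), just short of a call, Smad5 by 0.66 and Smad1 by 0.46. Bmp4 and Smad7 differed by -0.01 and 0.02, and Smad9, Bmpr2 and Acvr1 by -0.22, -0.26 and -0.46. The median difference of the 9 measured members was 0.46, beside 0.17 over all measured genes. Oligodendrocyte, endothelial and mural markers moved with this comparison: 8 of 11, 5 of 9 and 4 of 8 were lower in C cells by at least 1. So were 7 of 8 oligodendrocyte precursor markers. The list means averaged 0.89 (0 to 4.23) in C cells and 2.39 (0.12 to 11.6) in N cells for the oligodendrocyte list, 0.43 (0 to 6.29) and 2.10 (0 to 9.66) for the endothelial list, and 0.93 (0.02 to 7.17) and 1.93 (0.24 to 8.21) for the mural list. Without cells in vascular, neuron and oligodendrocyte clusters (6 N cells remain), the differences were 0.78 for Bmpr1a, 0.61 for Smad4 and -0.12 for Bmpr1b. These N cells still included N17 and N23, at 11.1 and 5.66 on the oligodendrocyte list, and N10, at 6.89 on the oligodendrocyte precursor list. Without cells averaging at least 4 over another cell type's list (7 N cells remain), the same differences were 0.38, 1.49 and 0.09. Under that last restriction Smad1, at 0.46 over all cells, was at -1.33 and was the only member called lower in C cells.

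Every R cell held exactly 1 member at 1 TPM or more: Bmp4 (1.59 TPM) in R1, Smad5 (34.88 TPM) in R2, Smad4 (6.93 TPM) in R3 and Bmpr1a (443.61 TPM) in R4. C cells held 1.96 ± 1.36 members (0 to 7, with 16 cells at none) and N cells 1.65 ± 1.35 (0 to 5, with 6 at none). Bmpr1b (-1.27), Smad1 (-1.43) and Smad4 (-1.02) were lower in R cells than in C cells by at least 1, where 22% of all measured genes were called lower and 20.9% higher. With upper-quartile rescaling these shares were 27.9% and 13.8%, and the median over all genes was -0.47 in place of -0.36. Bmpr1b averaged 0.24 ± 0.29 in R cells and 1.51 ± 2.71 in C cells. Smad1 averaged 0.15 ± 0.31 in R cells and 1.58 ± 2.53 in C cells, and Smad4 0.75 ± 1.49 in R cells and 1.77 ± 2.96 in C cells. The Smad4 difference was -0.78 without R1, R2 or R4 and -1.77 without R3. Bmpr1a, at 0.12 with all 4 R cells, was at -2.05 without R4, and Smad5, at -0.18, was at -1.39 without R2. The median over the 9 members was -0.56. Several marker lists move with this comparison. Beside the neuronal markers given above, 10 of 14 stem cell markers were lower in R cells by at least 1, with a list mean of 4.19 ± 0.92 in R cells and 6.70 ± 1.54 in C cells. Higher by at least 1 in R cells were 8 of 10 neuroblast, 6 of 11 oligodendrocyte, 5 of 9 microglia and 3 of 5 erythroid markers. Their list means were 3.44 ± 1.06 in R cells and 1.38 ± 0.94 in C cells for neuroblasts, 2.45 ± 1.25 and 0.89 ± 0.84 for oligodendrocytes, 1.65 ± 1.18 and 0.50 ± 0.55 for microglia, and 2.88 ± 1.48 and 0.81 ± 1.41 for the erythroid list. Their part in the member differences was not tested.

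Cycling C cells carried more Smad5 and Smad4 and less Bmpr1b than non-cycling C cells. Smad5 and Smad4 were higher by at least 1 and Bmpr1b was lower by at least 1. Of all measured genes 15.1% were called higher and 4.67% lower, and with upper-quartile rescaling 10.9% and 7.71%, with a median of -0.10 in place of 0.03 over all genes. The median over the 9 members was -0.01. Smad4 and Smad5 thus lay on one side and Bmpr1b on the other, with the list's median close to that of all genes.

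Smad5 averaged 2.84 ± 2.98 in cycling and 1.45 ± 2.53 in non-cycling cells, a difference of 1.39. Values ran from 0 through a median of 2.55 to 454.02 TPM in cycling cells and from 0 through 0.23 to 576.36 TPM in non-cycling cells, so the ranges overlap fully and the share of positive cells differs. Smad5 was detected in 14 of 27 cycling cells (51.9%, 31.95 to 71.3%) and 26 non-cycling cells (22.6%, 15.3 to 31.3%). Where detected, its medians were alike, 52.6 TPM in cycling and 49.4 TPM in non-cycling cells. A larger difference was seen in 10.01% of all measured genes.

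Smad4 averaged 2.88 ± 3.35 in cycling and 1.51 ± 2.81 in non-cycling cells, a difference of 1.37. It was detected in 12 cycling cells (44.4%, 25.5 to 64.7%) and 29 non-cycling cells (25.2%, 17.6 to 34.2%). The value depended on how cycling was called: it was 0.34 with a threshold of 4, 0.61 with a threshold of 2, and -0.52 when cycling was read from Mki67 alone.

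Bmpr1b averaged 0.43 ± 1.40 in cycling and 1.77 ± 2.88 in non-cycling cells, a difference of -1.34. Values ran from 0 through a median of 0 to 157.01 TPM in cycling cells and from 0 through 0.26 to 807.62 TPM in non-cycling cells. It was detected in 1 cycling cell (3.70%, 0.0937 to 18.97%) and 30 non-cycling cells (26.1%, 18.3 to 35.1%). Of all measured genes, 2.54% were lower by more. Bmpr1a was just short of a call at -0.998, with 1.35 ± 2.61 in cycling and 2.35 ± 3.04 in non-cycling cells. It was detected in 5 cycling cells (18.5%, 6.30 to 38.1%), each at 63.67 TPM or more, and in 47 non-cycling cells (40.9%, 31.8 to 50.4%). With upper-quartile rescaling Bmpr1a passed as well, giving 2 members higher and 2 lower.

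The other members were not called. Bmpr2 was detected in 4 cycling cells (14.8%) and 14 non-cycling cells (12.2%), a mean difference of -0.01, and Acvr1 in 1 and 8, a difference of -0.03. Smad1 was higher by 0.72, with 11 cycling (40.7%) and 39 non-cycling cells (33.9%) positive, and Smad7, in 3 cycling and 3 non-cycling cells, by 0.33. Smad9 differed by -0.33, with 2 cycling (7.41%) and 22 non-cycling cells (19.1%) positive. The Bmp4 difference of 0.35 came from C27: the other 26 cycling cells were all below 1 TPM. Every member's cells are drawn in the plot of cycling and non-cycling values.

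**Figure D2:**
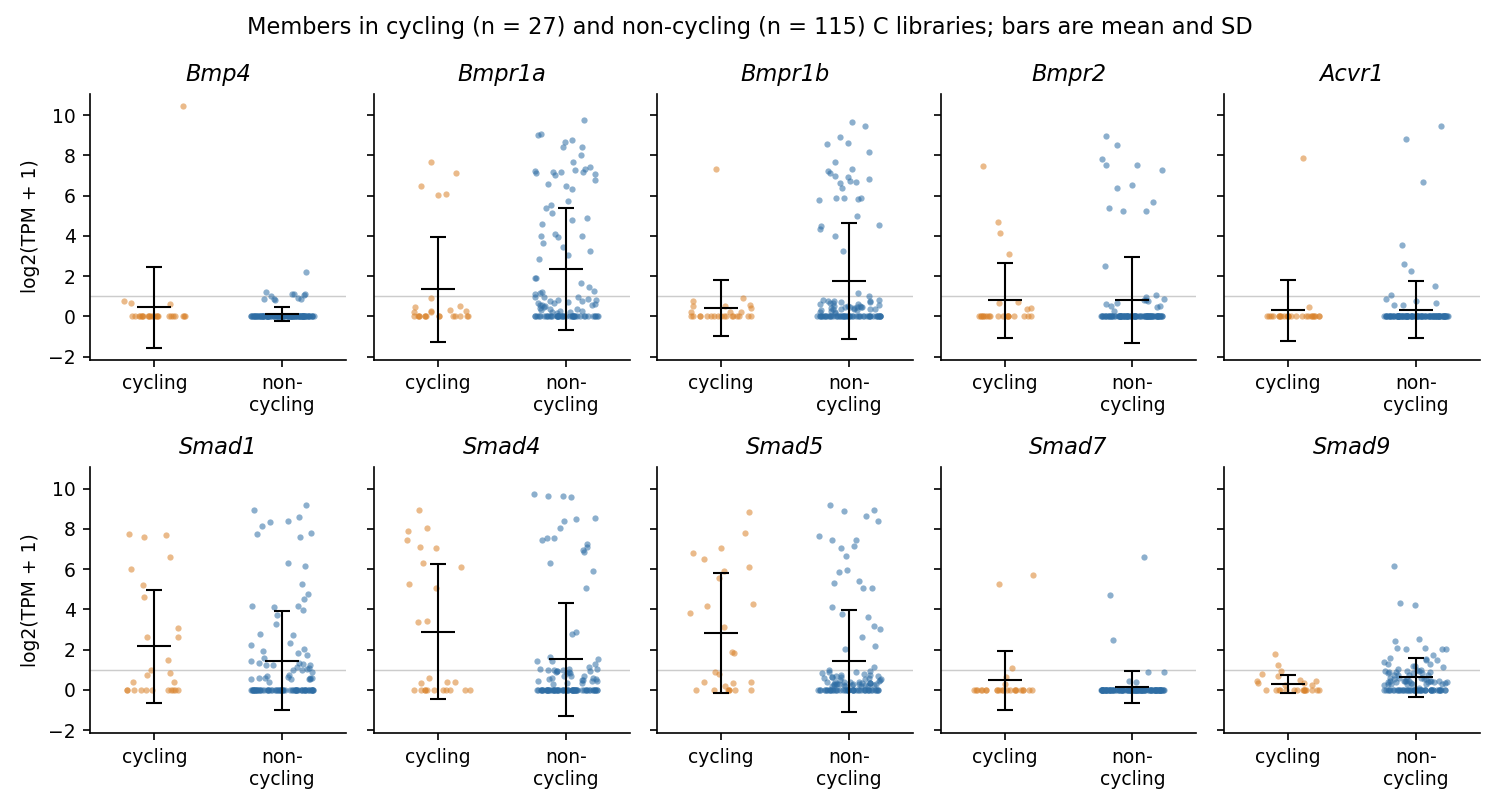
Level of each gene, log2(TPM + 1), in each cycling and each non-cycling C cell; points are cells, black bars the mean and SD, and the grey line marks 1 TPM. Bmpr1b has 1 cycling cell above the line and 30 non-cycling cells, whereas Smad5 has 14 cycling and 26 non-cycling cells above it.

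Receptors and Smads were then counted per cell, sets that were chosen after the values were seen. At least 1 type I receptor was detected in 5 of 27 cycling cells (18.5%, 6.30 to 38.1%) and 66 non-cycling cells (57.4%, 47.8 to 66.6%), a difference of -38.9 percentage points. At least 1 receptor-regulated Smad was detected in 20 cycling cells (74.1%, 53.7 to 88.9%) and 62 non-cycling cells (53.9%, 44.4 to 63.2%), a difference of 20.2 points. A receptor-regulated Smad together with Smad4 was found in 8 cycling cells (29.6%, 13.8 to 50.2%) and 16 non-cycling cells (13.9%, 8.17 to 21.6%). All 5 cycling cells with a type I receptor also held a receptor-regulated Smad, as did 36 of the 66 non-cycling cells.

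**Figure D3:**
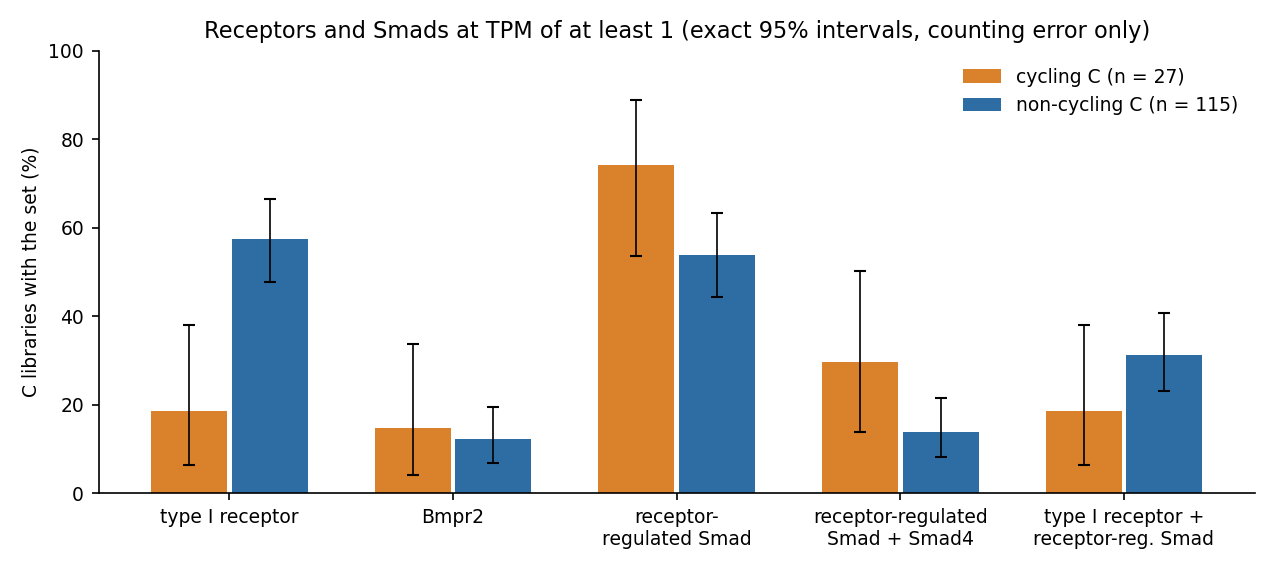
Share of cycling and non-cycling C cells, in percent, with each set of genes at 1 TPM or more; whiskers are exact 95% intervals. Type I receptors stand at 18.5% in cycling and 57.4% in non-cycling cells, while receptor-regulated Smads stand at 74.1% and 53.9%.

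A complete set, that is a type I receptor, Bmpr2, a receptor-regulated Smad and Smad4 in the same cell, was detected in 2 C cells (1.41%, 0.171 to 4.995%). It was detected in 0 of 4 R cells and 0 of 26 N cells, which allows shares of up to 75% and 11.5%. The first C cell, C63, held 7 members, among them 380.52 TPM of Bmpr1b and 188.66 TPM of Smad1, and was also a cell with many detected genes, 6821. It lay in the neuron-like cluster and was high in markers of different types, at 8.28 on the stem cell list and 5.60 on the mature neuron list, and no doublet caller was run. The second, C112, was cycling and held 86.71 TPM of Bmpr1a, 67.04 TPM of Smad4 and 2.66 TPM of Smad5. At a detection level of 0.1 TPM the share of C cells was 10.6%, against 1.41% at 1 TPM. C cells with more detected genes held more members (Spearman's rho 0.33 over all C cells). Between pairs of the 9 measured members, rho over C cells ranged from -0.15 to 0.18 with a median of 0.04 over 36 pairs, and in values this sparse weak correlations are no finding.

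The cell types behind the cycling comparison were read from 8 clusters built without the members. By markers, 1 cluster with 29 cells was progenitor-like, 1 with 13 neuron-like, 1 with 12 vascular-like and 1 with 8 oligodendrocyte lineage-like. The remaining 4 clusters, with 110 cells, are called stem cell-like. The list level needed for a name, 3, was set after the values were seen. On the stem cell list, this level set the stem cell-like clusters, at 6.95, apart only from vascular-like cells, at 2.82. Progenitor-like, neuron-like and oligodendrocyte lineage-like cells averaged 5.33, 4.95 and 3.92 on it. Of the 110 stem cell-like cells, 99 averaged at least 4 on it. Among the rest, N17 was at 11.1 on the oligodendrocyte list and C45 at 6.73 on the oligodendrocyte precursor list. C138 was at 5.54 on the intermediate progenitor list. The stem cell list cannot separate neural stem cells from astrocytes, and the 10 leading genes of the stem cell-like clusters hold no marker of that list. The neuron-like cluster has the microglial gene P2ry12 among its leading 10. It was mixed, averaging 4.95 ± 2.56 on the stem cell list and 4.75 ± 1.84 on the mature neuron list. The progenitor-like cluster held 22 of the 27 cycling cells and 6 non-cycling C cells.

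Smad5 was highest in progenitor-like cells, at 3.14 ± 3.03 with 17 of 29 positive (58.6%), followed by oligodendrocyte lineage-like cells at 2.13 ± 3.03, stem cell-like cells at 1.37 ± 2.46, neuron-like cells at 1.25 ± 1.96 and vascular-like cells at 0.14 ± 0.28. Bmpr1b was highest in stem cell-like cells instead, at 1.76 ± 2.91 (28 of 110 positive, 25.5%), followed by neuron-like cells at 1.52 ± 2.87, progenitor-like cells at 0.38 ± 1.35 (1 of 29, 3.45%), oligodendrocyte lineage-like cells at 0.29 ± 0.48 and vascular-like cells at 0.24 ± 0.45. Bmpr1a was also highest in stem cell-like cells, at 2.29 ± 3.11, and lowest in vascular-like cells, at 0.63 ± 1.19. Neighbours in each of these orders differed by less than the larger of their SDs.

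Smad4 (2.36 ± 3.01) and Smad7 (0.44 ± 1.41) had their highest means in progenitor-like cells too, and Smad1 in the mixed neuron-like cluster (2.68 ± 3.16). Smad1 reached 1 TPM in 6 of those 13 cells, but the 4 R cells among them held at most 0.53 TPM. Its highest values there were 217.89 TPM in N18, 188.66 TPM in C63 and 76.87 TPM in C4. On the stem cell list these 3 cells averaged 2.19, 8.28 and 8.25, and on the mature neuron list 2.83, 5.60 and 1.11. Bmpr2 (1.49 ± 2.77), Acvr1 (1.33 ± 2.66) and Bmp4 (0.56 ± 1.58) were highest in oligodendrocyte lineage-like cells, each in at most 2 of 8 cells. Smad9 was highest in vascular-like cells, at 0.84 ± 1.31. Acvr1 reached 1 TPM in none of the 29 progenitor-like cells (highest 0.37 TPM) and in 8 of 110 stem cell-like cells.

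**Figure D4:**
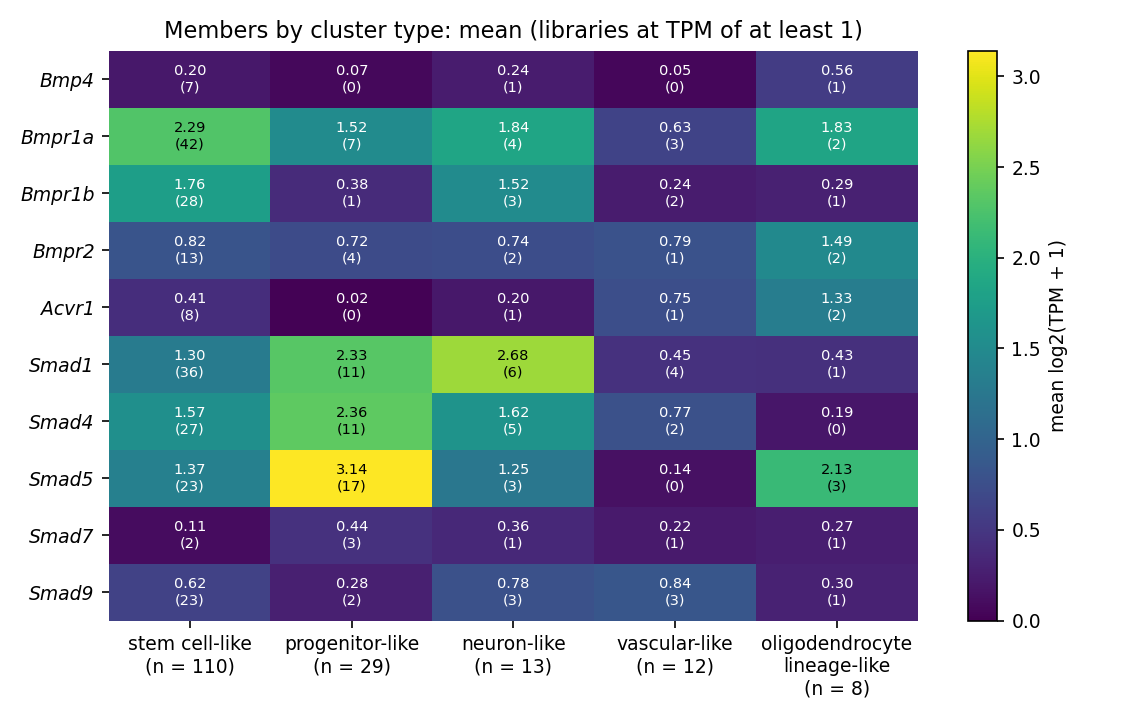
Mean log2(TPM + 1) of each gene in the 5 cell types named from clusters, with the number of cells at 1 TPM or more in brackets; colour follows the mean. Smad5 is brightest in progenitor-like cells (3.14, 17 of 29 cells) and Bmpr1a in stem cell-like cells (2.29, 42 of 110).

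Cell type and cycling moved together, and the 2 could be parted only in small groups. Within the progenitor-like cluster, Smad5 averaged 3.2 ± 3.02 in 22 cycling cells and 3.43 ± 3.32 in 6 non-cycling cells, a difference of -0.23. Bmpr1b averaged 0.44 ± 1.55 and 0.23 ± 0.28 there, a difference of 0.21. It was positive in 1 of the 22 cycling cells (C121, 157.01 TPM) and 0 of the 6 non-cycling cells. Within the stem cell-like clusters, Smad5 averaged 1.23 ± 2.42 in 5 cycling and 1.37 ± 2.50 in 100 non-cycling cells. Bmpr1b averaged 0.38 ± 0.25 in those 5 cycling cells (0 positive) and 1.82 ± 2.92 in the 100 non-cycling cells (27 positive). Smad5 was thus not higher in cycling cells within either cell type. It was positive in 1 of 5 cycling and 20 of 100 non-cycling stem cell-like cells, 20% of each. The Bmpr1b difference within the progenitor-like cluster went the other way but rested on 1 positive cell. Bmpr1b kept its direction in the stem cell-like clusters. Smad4 and Bmpr1a kept their directions in both, but on few positive cells. Smad4 was positive in 9 of 22 cycling and 1 of 6 non-cycling progenitor-like cells. Among stem cell-like cells it was positive in 3 of 5 cycling cells (C15, C80 and C119) and 24 of 100 non-cycling cells. Bmpr1a was positive in 4 of 22 and 3 of 6 progenitor-like cells, and in 1 of 5 (C119) and 40 of 100 stem cell-like cells. Smad4 averaged 2.38 ± 2.96 in cycling and 1.5 ± 2.99 in non-cycling progenitor-like cells, and 5.05 ± 4.45 in cycling and 1.47 ± 2.84 in non-cycling stem cell-like cells. Bmpr1a averaged 1.31 ± 2.48 in cycling and 2.54 ± 2.80 in non-cycling progenitor-like cells, and 1.54 ± 3.43 in cycling and 2.36 ± 3.11 in non-cycling stem cell-like cells. The 5 cycling stem cell-like cells are a mixed group: the stem cell list averaged 7.77 in C15 and 6.80 in C109, but 3.53 in C27, 3.33 in C80 and 3.43 in C119, and C80 was at 6.72 on the oligodendrocyte precursor list. The type I receptor share kept its direction in the progenitor-like cluster, with 4 of 22 cycling cells (18.2%, 5.19 to 40.3%) and 3 of 6 non-cycling cells (50%, 11.8 to 88.2%). It also did so in the stem cell-like clusters, with 1 of 5 cycling cells (20%) and 56 of 100 non-cycling cells (56%).

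Stem cell, astrocyte and progenitor markers moved with the cycling split. Of the 14 stem cell markers 12 were lower in cycling cells, 9 of them by at least 1, with a list mean of 5.30 ± 1.43 (3.23 to 7.77) in cycling and 7.03 ± 1.37 (2.53 to 9.43) in non-cycling cells. Of 10 neuroblast markers 4 were higher by at least 1, with list means of 2.02 ± 0.99 and 1.23 ± 0.87. All 11 astrocyte markers were lower in cycling cells, 7 of them by at least 1, and the list averaged 2.27 ± 0.97 (0.32 to 4.13) in cycling and 4.05 ± 1.44 (0.72 to 8.11) in non-cycling cells. Aqp4 and Aldh1l1 were listed at less than 1 TPM in every cycling cell. All 9 intermediate progenitor markers were higher, 6 of them by at least 1, with a list mean of 3.23 ± 1.63 (0.47 to 6.03) in cycling and 1.31 ± 1.04 (0.04 to 6.02) in non-cycling cells. Their part in the receptor and Smad differences was not tested.

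All C cells in stem cell-like or progenitor-like clusters were also ordered along the first principal component of 1000 variable genes, which held 7.6% of the variance, and cut into 5 bins of 26 or 27 cells. Bin 5 held 25 of the progenitor-like cells and averaged 3.75 ± 1.37 on the intermediate progenitor list, against 0.93 to 1.49 in bins 1 to 4. The stem cell list averaged 6.57, 6.78, 7.13, 7.81 and 5.48 along the bins, so bin 1 is not its high end. Along these bins, Smad5 averaged 0.86, 1.45, 1.52, 1.63 and 3.31, and Bmpr1b 1.31, 2.21, 1.98, 1.45 and 0.39. Bmpr1a averaged 1.55, 1.20, 2.40, 3.71 and 1.94, highest in bin 4, where 15 of 27 cells were positive (55.6%). Smad4 averaged 1.40, 2.53, 0.94, 1.27 and 2.60, with no steady course. Bin 5 held 21 of the 27 cycling cells. Spearman's rho with the order was 0.20 for Smad5 and -0.15 for Bmpr1b, and without cycling cells it was 0.09 for Smad5 and -0.02 for Bmpr1b. That of Bmpr1a was 0.06 with and 0.24 without cycling cells. The order itself had a rho of 0.28 with the number of genes detected.

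**Figure D5:**
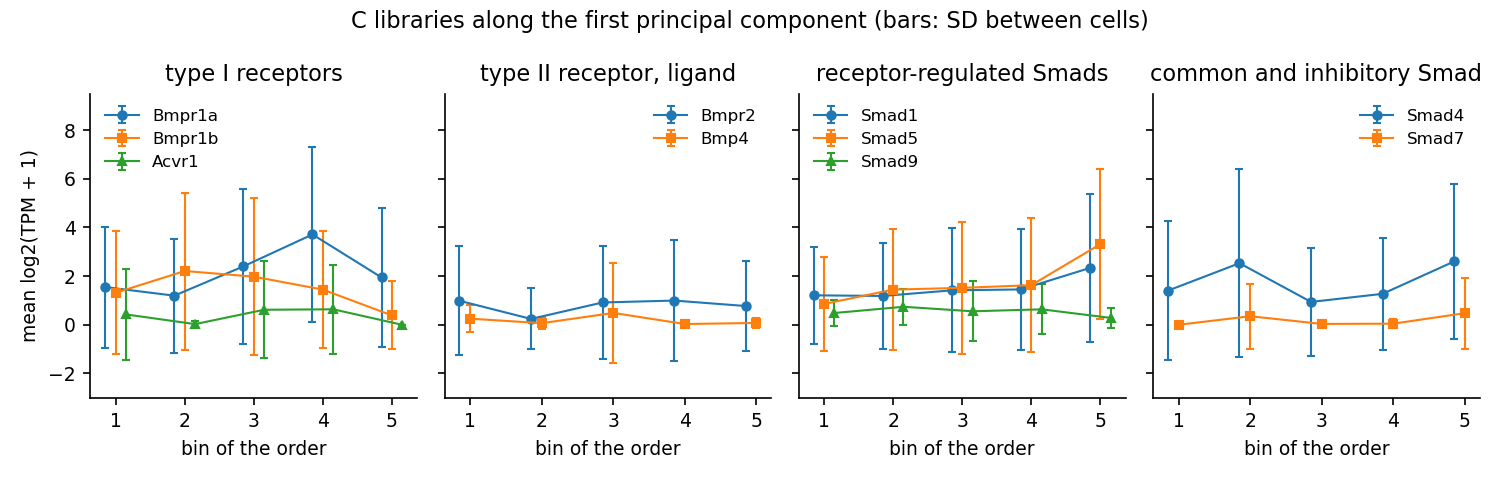
Mean log2(TPM + 1) of the members along 5 bins of C cells ordered by the first principal component, with most progenitor-like cells in bin 5; bars are the SD between cells. Smad5 stands at 3.31 in bin 5 and Bmpr1b at 0.39, with SDs that overlap the other bins.

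Around the members, 52 other genes of the BMP and TGF-beta pathways were looked up and 29 were measured. Of the 6 measured targets of BMP signalling, Id3 and Id4 were called in cycling cells, both lower, and the median over the 6 was -0.38. Id4 averaged 2.69 ± 3.44 in cycling and 6.06 ± 3.64 in non-cycling C cells, a difference of -3.37, and was detected in 55.6% of cycling and 87.8% of non-cycling cells. Id3 averaged 1.32 ± 1.61 in cycling and 4.05 ± 3.91 in non-cycling cells, a difference of -2.73. Id1 was detected in 8 cycling cells (29.6%) and 17 non-cycling cells (14.8%), and Id2 in 21 (77.8%) and 95 (82.6%). The 4 genes, whose products block proneural transcription factors, therefore did not share a direction: Id3 and Id4 were lower in cycling cells by at least 1, and Id1 was higher by less than that (1.54 ± 2.79 in cycling, 0.86 ± 2.33 in non-cycling cells). Id4 also belongs to the stem cell marker list.

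Between C and N cells, Id4 was higher in C cells by 4.17 (5.42 ± 3.83 in C cells, 1.25 ± 2.07 in N cells) and Id3 differed by -1.42 (3.53 ± 3.74 in C cells, 4.94 ± 4.77 in N cells). Bmper, a secreted BMP-binding modulator, was higher by 1.57, with 51 C cells (35.9%) and 1 N cell (3.85%) positive. Tgfbr2 and Tgfbr3, receptors of the related TGF-beta ligands, differed by -1.21 and -1.48, with 5 and 8 C cells positive and 5 and 6 N cells. In all, 2 of the 29 genes were called higher and 3 lower in C cells, beside 9.98% and 4.19% of all measured genes.

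In cycling cells 4 of the 29 were called higher and 2 lower, counts close to the 15.1% and 4.67% of all measured genes. Twsg1, a secreted BMP-binding protein, averaged 2.76 ± 3.22 in cycling and 0.46 ± 1.42 in non-cycling cells and was detected in 12 cycling (44.4%) and 8 non-cycling cells (6.96%). Bmper was higher by 1.59, detected in 14 cycling (51.9%) and 37 non-cycling cells (32.2%). The Smad corepressor Skil was higher by 1.19 and the receptor-binding immunophilin Fkbp1a by 1.81. The 2 lower genes were Id3 and Id4. In R cells 3 genes were called higher than in C cells, Twsg1, Skil and Fkbp1a, and 6 lower, Fstl1, Bmper, Tob1, Smad2, Id4 and Hes1, beside 20.9% higher and 22% lower over all measured genes. R cells are compared here with all C cells, and cycling C cells with non-cycling C cells, so the comparisons share C cells.

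The antagonists Nog and Chrd, which bind BMPs outside the cell, were rare: Nog reached 1 TPM in 3 C cells and 1 N cell, and Chrd in 9 C cells and 3 N cells. No cycling cell held either at that level. Smad6, the other inhibitory Smad, was found in 2 C cells.

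Lastly, the measured genes whose levels followed Bmpr1a and Smad1 most closely over all C cells were listed, these being the members detected in at least 30% of C cells. For Bmpr1a they were Slc9a3r1 (Spearman's rho 0.40), Ahcyl1 (0.39) and Rchy1 (0.36). For Smad1 they were Gas2l3, Foxm1 and Psip1 (0.34 each). These values share library and depth and are weak.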

How the data were processed

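Single cells were sequenced after a NuGEN Ultralow V2 library preparation, as the labels state. TPM per gene was deposited for the whole series, with 142 C, 26 N and 4 R columns. RSEM and the build mm9 are named, per the submitters' processing notes. Version, aligner and annotation: not given in the sources used here. Cycling C cells numbered 27 and non-cycling C cells 115. RSEM divides reads shared by related genes, so values of near-identical copies are uncertain. Of the columns 171 match 1 title each, and C27 fits 2 of the 173 titles. No pair of libraries held identical values (highest correlation 0.599).

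The members and the gene lists were chosen with earlier results of these data known. Differences are of mean log2(TPM + 1), called at a size of 1, with no test, since labels name no animal. Shares carry exact Clopper-Pearson 95% intervals, and a count of 0 is given with the limit of 3 counts. Named genes are the members, Id1 to Id4, pathway genes called in a comparison, and for members in at least 30% of C cells the 3 with the highest rho. The named antagonists, Bmp2, Bmp6, Bmp7 and Smad6 were added after their values were seen. Clusters used 2000 variable genes, 15 components and Ward linkage (scipy 1.17.1). No doublet caller was run, and no further filter was set on cells. The differences of means were checked by adding known shifts to shuffled values, and no other step was checked in this way. Alternatives changed the pseudocount, filter, scaling, split and cells kept.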

Additional observations from a re-analysis of the deposited data

Results flagged for a closer look

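Among the 4 R cells, 1 cell was marked as apart from the other 3 in 5 members, by its gap to the next value over the whole range. These were Bmp4 in R1 (1.59 TPM), Bmpr1a in R4 (443.61 TPM), Smad1 in R2 (0.53 TPM), Smad4 in R3 (6.93 TPM) and Smad5 in R2 (34.88 TPM). The next value was 0 TPM for Bmp4, Smad1 and Smad4, 0.27 TPM for Bmpr1a and 0.81 TPM for Smad5. Chance marks about 1 in 20 such groups of evenly spread values, and values mostly at 0 are marked more easily. For Bmp4, Smad1 and Smad4, with the other 3 cells at 0, the mark was bound to follow whatever the size of the value. Smad1 in R2 was below 1 TPM. No R cell stood apart in all of these genes.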

How the results depend on the processing

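No paired analysis was possible because the numbers in the titles only name libraries, no animal is given and no test was made. The counts of called members depend on the pseudocount and on the kind of mean. With a pseudocount of 0.1 they were 4 for C against N (2 as reported), 5 for R against C (3 as reported) and 5 for cycling against non-cycling C cells (3 as reported). With a pseudocount of 10 all 3 counts were 0. With the log2 ratio of mean TPM they were 4 for C against N and 9 for R against C. The count for C against N was 0 without the vascular, neuron and oligodendrocyte clusters. Leaving out each R cell in turn gave 2 to 3 members for R against C. Within the progenitor-like cluster alone, a restriction chosen after seeing the data, the cycling count was 1 and Bmpr1b was at 0.21, with 1 positive cell. Smad5 was at -0.23 there and the receptor-regulated Smad share at -10.6 points. Smad4 was at -0.52 with cycling read from Mki67. With the log2 ratio of mean TPM the cycling differences were 0.57 for Smad5, 0.29 for Smad4 and -2.63 for Bmpr1b. The complete set was found in 10.6% of C cells at 0.1 TPM and in 0 at 10 TPM. The type I receptor difference was -15.7 points at 0.1 TPM and ranged to -44.1 points over the alternatives tried, never changing sign. The causes were not tested. Of the other single values recomputed, 33 moved by more than the spread and 334 did not. Such a value can still lose its call, as Bmpr1a between C and N cells did at 0.57 with a pseudocount of 10. Between C and N cells, Bmpr1a stayed past 1 in 4 of 8 alternatives and Smad4 in 5 of 8. For R against C cells, Bmpr1b and Smad1 did so in 9 of 10 each and Smad4 in 5 of 10. In the cycling split, Bmpr1b and Smad5 did so in 10 of 13 each and Smad4 in 7 of 13. TPM keeps no depth, so a gene listed at 0 may have been missed.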
